A study of Mus musculus with 16 samples.

Results

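The genes that build coenzyme Q and hold it in the mitochondrion were examined in the LV of TGAC8 and WT mice. The 9 genes Coq2, Coq3, Coq4, Coq5, Coq6, Coq7, Coq9, Coq10a and Coq10b were taken by symbol from the 11811 rows of the deposited transcript table, and each symbol was found in the table. The 8 TGAC8 mice carry a cDNA for human ADCY8, a calcium-activated adenylyl cyclase, behind the α-myosin heavy chain promoter, which drives the transgene in cardiac myocytes. They were compared with 8 WT mice, and both genotypes were on the C57BL/6 background. The mice were males aged 3 months. Total RNA of the left ventricle was sequenced as 1 library per mouse.

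Coenzyme Q (ubiquinone) is a redox lipid of the inner mitochondrial membrane, made of a benzoquinone ring and a long isoprenoid tail. It takes electrons from complex I, complex II and several other dehydrogenases and hands them to complex III, and its reduced form is also a lipid antioxidant. The tail comes from the mevalonate route, COQ2 joins it to the ring, and a complex of COQ3 to COQ9 proteins at the inner membrane then modifies the ring. The heart, with its dense mitochondria, is a tissue that holds much of this lipid, and inherited defects of the pathway in patients can include cardiomyopathy.

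The levels are FPKM, in which the authors set fragments against the length of the transcript and the size of the library. They are per length, so levels of different genes may be set side by side. In bulk tissue of the ventricle, fewer cells of a type and less RNA per cell cannot be told apart. The human ADCY8 transcript stood at 411 to 602 FPKM in the 8 TGAC8 libraries, against 0 FPKM in 7 WT libraries and 0.345 FPKM in WT library 2, so each library carried the genotype of its label. The genotypes were compared with limma on log2(FPKM + 0.1), and a gene was called at a Benjamini-Hochberg adjusted p under 0.05 over the 11544 rows with a mean of at least 0.5 FPKM. By this rule 2954 genes, or 25.6%, were called, 20.9% higher and 4.65% lower in TGAC8. The median log2 fold change over all tested genes was 0.12 as deposited, and it was 0.0074 after geometric scaling, which sets the median gene of each library to its geometric mean over the libraries. On that scale 20.5% of the genes were called, 9.74% higher and 10.8% lower, so both scales are given where they differ.

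Markers of other cells of the ventricle moved with genotype. Of 12 fibroblast markers 11 were higher in TGAC8, with summed levels of 282 to 492 FPKM in TGAC8 libraries and 222 to 264 FPKM in WT libraries. Of 13 macrophage markers 10 were higher, with sums of 133 to 196 FPKM in TGAC8 and 98.5 to 131 FPKM in WT. Of 12 endothelial markers 0 were called, with sums of 167 to 218 FPKM in TGAC8 and 177 to 198 FPKM in WT. Of 12 cardiomyocyte markers 1 was higher and 5 were lower, and their sums were 27905 to 33369 FPKM in TGAC8 and 33698 to 36559 FPKM in WT. These high levels in every library bore out heart muscle, but the sums do not separate ventricle from atrium. Of 5 atrial markers 1 was higher, with sums of 33.5 to 190 FPKM in TGAC8 and 65.8 to 232 FPKM in WT. Of 9 smooth muscle and pericyte markers 2 were higher, with sums of 221 to 297 FPKM in TGAC8 and 196 to 224 FPKM in WT. These counts stand beside 20.9% of all tested genes called higher and 4.65% called lower. None of the fibroblast, macrophage, endothelial and cardiomyocyte markers was at 0 in any library. The part of these markers in the results below was not tested.

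None of the 9 coenzyme Q genes was called in either direction, that is 0 of 9 against 25.6% of all tested genes, and all 9 had passed the filter on low values. The count at an unadjusted limma p under 0.05 was 1 of 9, Coq10b, against 4336 of all 11544 tested genes. The exact rank-sum test with the same adjustment also called 0 of 9, against 2613 of the 11544. The libraries of the genotypes overlapped for each of the 9 genes, while 5.93% of all tested genes had no overlap (4.79% with TGAC8 above WT, 1.13% below). The median log2 fold change of the 9 genes was 0.0083, with 5 of 9 above 0, beside the median of 0.12 over all tested genes. On the geometric scale their median was -0.11, beside 0.0074 over all genes, and 2 of 9, Coq2 and Coq9, were called lower, against 10.8% of all tested genes. The summed level of the 9 genes was 313 ± 17.7 FPKM in TGAC8 and 315 ± 14.6 FPKM in WT (SD, 8 mice each). The FPKM of all rows summed to 314283 to 374087 in TGAC8 libraries and 356854 to 407506 in WT libraries, and of these totals the 9 genes made up 0.0928% ± 0.0057 in TGAC8 and 0.0834% ± 0.0071 in WT (SD, 8 mice each). The mean share of all FPKM was thus higher in TGAC8, in the direction opposite to the geometric scale, with libraries of the genotypes overlapping and no test made.

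**Figure D1:**
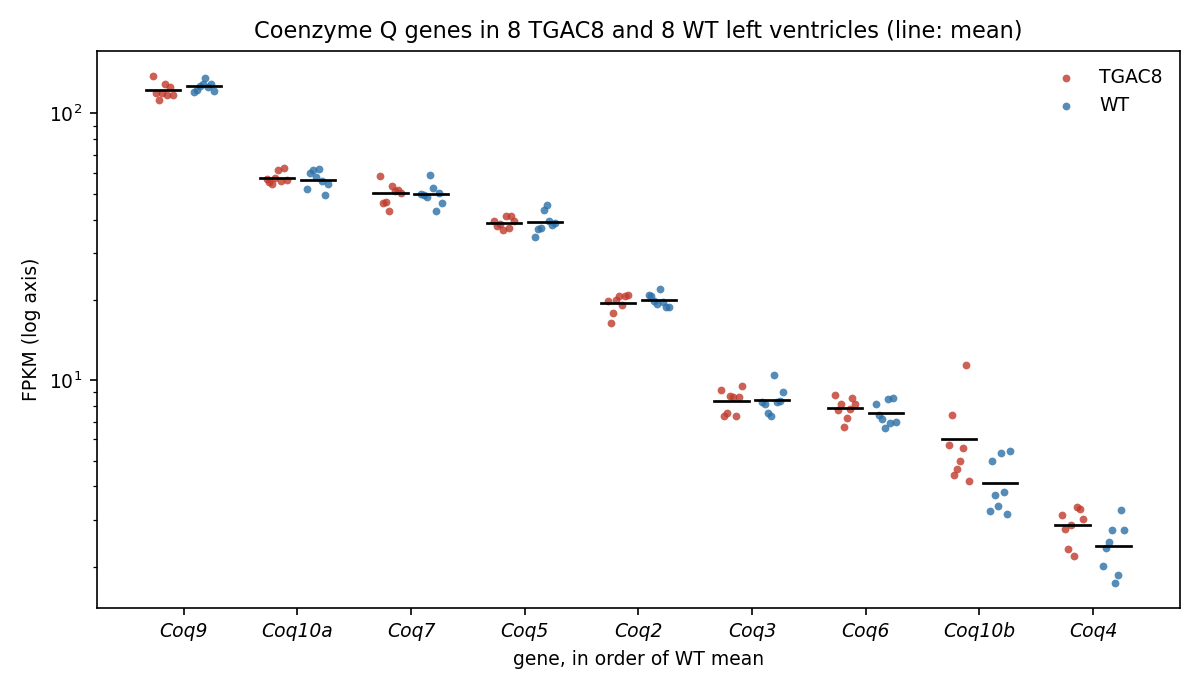
FPKM (log axis) of each of the 9 coenzyme Q genes, ordered by WT mean, with 1 point per library, TGAC8 left of WT, and a line at the mean of 8 libraries. The points of the genotypes overlap for every gene, and TGAC8 library 7 stands apart for Coq10b at 11.4 FPKM.

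The sequences ahead of the COQ10 paralogs are given because Coq10b had the largest fold change of the 9 genes and its paralog Coq10a differed by far less. The RefSeq promoter table (GRCm38.p6) held 8 of the 9 genes, and Coq5 was not among them. Each line gives the 250 bases before an annotated start, 5′ to 3′ on the strand of the gene, at chr1:55052520-55052769 on the plus strand for Coq10b and at chr10:128370038-128370287 on the minus strand for the upstream start of Coq10a. Capitals mark TGACG, the shorter core of the cAMP response element, or CGTCA, the same letters on the other strand.
Coq10b: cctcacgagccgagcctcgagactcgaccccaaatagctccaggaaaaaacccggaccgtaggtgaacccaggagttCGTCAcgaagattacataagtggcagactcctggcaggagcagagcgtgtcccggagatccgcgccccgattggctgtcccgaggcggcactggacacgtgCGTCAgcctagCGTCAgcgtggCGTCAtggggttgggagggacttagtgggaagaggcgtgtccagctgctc
Coq10a: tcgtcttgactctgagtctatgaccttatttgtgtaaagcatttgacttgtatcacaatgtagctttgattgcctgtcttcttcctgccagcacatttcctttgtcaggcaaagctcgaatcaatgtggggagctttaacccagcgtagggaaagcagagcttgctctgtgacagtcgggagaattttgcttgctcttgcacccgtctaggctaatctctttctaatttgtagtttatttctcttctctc

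The Coq10b window held CGTCA 4 times, at 173, 72, 61 and 50 bases before the start, and an E-box, CACGTG, at 78 bases before it, which adjoins the second of these matches without overlap. The upstream Coq10a window held no TGACG on either strand, and the window of a second Coq10a start, at chr10:128368981-128369230, held it at 16 bases before the start. Over the whole RefSeq table, 20.8% of 32851 windows (250 bases before to 50 bases after a start) held TGACG at least once on either strand, and 0.231% held it 4 times or more. It was found for 6 of the 8 matched coenzyme Q genes, Coq2, Coq6, Coq7, Coq9, Coq10a and Coq10b. The longer form TGACGTC, which contains TGACG, was in 3.21% of all windows and in none of the 8 genes. CACGTG was in 7.15% of all windows and in those of Coq4 and Coq10b. The Coq10b bases shown were 62% G or C, against 43.6% in the upstream Coq10a window. They were also 62% in the window of the second Coq10a start, which lies at the start of the annotated gene and is not printed. The contrast between the paralogs in G or C and in TGACG thus depends on the Coq10a start chosen. A match describes letters in a window and nothing was drawn from it about binding.

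Coq2 (ENSMUSG00000029319.8, chr5:100654723-100675140, mm10) encodes the prenyltransferase that joins the isoprenoid tail to the hydroxybenzoate ring, the step that commits both parts to the pathway. Its levels were 16.4, 19.9 and 20.8 FPKM in TGAC8 (lowest, median, highest) and 18.7, 19.8 and 22 FPKM in WT. The ranges overlapped, with TGAC8 libraries 2 and 3 at the low end, and the log2 fold change was -0.046 ± 0.053 (SE) with a limma adjusted p of 0.548. On the geometric scale it was -0.16 with an adjusted p of 0.00969, and after quantile normalization it was -0.14 with an adjusted p of 0.0209, so the call depended on how libraries were scaled.

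The ring is then methylated and hydroxylated. COQ3 (gene ENSMUSG00000028247.2, chr4:21879673-21912162) is the O-methyltransferase that acts at 2 steps of the pathway. Coq3 stood at 7.35, 8.63 and 9.53 FPKM in TGAC8 and 7.37, 8.29 and 10.5 FPKM in WT, with TGAC8 nearly inside the WT range and a log2 fold change of -0.011 ± 0.075 (SE). COQ5 (gene ENSMUSG00000041733.10, chr5:115279666-115296972) is the C-methyltransferase. Coq5 had 36.7, 39.0 and 41.2 FPKM in TGAC8 and 34.5, 38.6 and 45.4 FPKM in WT, where the TGAC8 libraries lay inside the WT range, and its log2 fold change was -0.0056 ± 0.052 (SE). The limma adjusted p was 0.93 for Coq3 and 0.949 for Coq5.

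COQ6 and COQ7 are the hydroxylases. COQ6 (gene ENSMUSG00000021235.13, chr12:84361657-84373796) is a flavin-dependent monooxygenase that receives its electrons through ferredoxin and ferredoxin reductase. Coq6 had 6.70, 7.96 and 8.84 FPKM in TGAC8 and 6.65, 7.30 and 8.58 FPKM in WT, an overlap over most of both ranges, with a log2 fold change of 0.065 ± 0.068 (SE) and a limma adjusted p of 0.51. COQ7 (gene ENSMUSG00000030652.11, chr7:118509659-118533356) is the di-iron hydroxylase of the last hydroxylation. Coq7 had 43.2, 50.8 and 58.1 FPKM in TGAC8 and 43.1, 49.6 and 58.8 FPKM in WT, nearly the same ranges, with a log2 fold change of 0.0083 ± 0.065 (SE) and an adjusted p of 0.94. On the geometric scale the changes of Coq6 and Coq7 had the other sign, -0.050 and -0.11, with adjusted p of 0.65 and 0.188.

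COQ9 and COQ4 belong to the same complex. COQ9 (gene ENSMUSG00000031782.15, chr8:94838321-94854895) is a lipid-binding protein that presents the substrate to COQ7. Coq9 was the most abundant of the 9 transcripts, at 112, 119 and 138 FPKM in TGAC8 and 121, 126 and 136 FPKM in WT. The ranges overlapped, and 5 of the 8 TGAC8 libraries lay below the lowest WT library while library 1 lay above the highest. The log2 fold change was -0.050 ± 0.043 (SE) with a limma adjusted p of 0.414, and on the geometric scale it was -0.17 with an adjusted p of 0.000838.

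COQ4 (gene ENSMUSG00000026798.10, chr2:29787493-29797935) is needed for the complex to hold together, and acts on the ring itself as well. Coq4 was the least abundant of the 9 transcripts, at 2.19, 2.94 and 3.35 FPKM in TGAC8 and 1.75, 2.42 and 3.27 FPKM in WT. TGAC8 was above the WT median in 6 of 8 libraries, yet the ranges overlapped over most of their length. The log2 fold change was 0.26 ± 0.12 (SE), with a 95% interval that just reached 0 (-0.0024 to 0.52) and a limma adjusted p of 0.137. Coq4 overlaps Trub2, a pseudouridine synthase gene on the opposite strand, over 1010 bases at chr2:29787493-29788502, and 25.7% of its 50-base runs occur in transcripts of other genes. Trub2 itself averaged 2.61 FPKM in TGAC8 and 2.1 FPKM in WT, with a log2 fold change of 0.27 and an adjusted p of 0.164. The sources used here do not say whether counting used strand, so reads in the shared bases cannot be told apart. The row of Coq4 in the table starts at chr2:29788187, inside this overlap, so part of the shared bases lies outside the row.

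COQ10A and COQ10B are START-domain proteins that bind coenzyme Q. In yeast their counterpart is not needed to make the lipid in bulk but is needed for its normal use in respiration. Coq10a (ENSMUSG00000039914.6, chr10:128363100-128368997) had 54.5, 56.5 and 62.5 FPKM in TGAC8 and 49.3, 56.8 and 61.9 FPKM in WT. The TGAC8 libraries lay almost wholly inside the WT range, and the log2 fold change was 0.027 ± 0.050 (SE) with a limma adjusted p of 0.727, while on the geometric scale it was -0.089 with an adjusted p of 0.217.

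Coq10b (ENSMUSG00000025981.13, chr1:55052770-55072702) had the largest fold change of the 9 genes. It stood at 4.19, 5.27 and 11.4 FPKM in TGAC8 and 3.15, 3.75 and 5.44 FPKM in WT. All 8 TGAC8 libraries were above the WT median, and 4 of 8 were above the highest WT library, among them library 2 at 7.39 FPKM and library 7 at 11.4 FPKM. The mean was 6.04 ± 2.39 FPKM in TGAC8 and 4.13 ± 0.970 FPKM in WT (SD, 8 mice each). The log2 fold change was 0.49 ± 0.18 (SE), with a 95% interval of 0.10 to 0.88, an unadjusted p of 0.0158 and a limma adjusted p of 0.0584, so it was not called. On the geometric scale it was 0.38 with an adjusted p of 0.17.

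The Coq10b result lay close to the threshold and single libraries moved it across. Without TGAC8 library 7 the log2 fold change was 0.35 with a limma adjusted p of 0.0877. The adjusted p was under 0.05 without TGAC8 library 3 (0.0439), TGAC8 library 8 (0.0421), WT library 5 (0.0427) or WT library 8 (0.0439), and between 0.0525 and 0.105 without each of the other 12. In TGAC8 library 7 the summed macrophage markers (133 FPKM) and endothelial markers (167 FPKM) were the lowest of the TGAC8 libraries, and its summed fibroblast markers (369 FPKM) and cardiomyocyte markers (31902 FPKM) were inside the TGAC8 range. The part of these in the Coq10b level was not tested. Coq10b also overlaps E330011M16Rik, an unnamed transcript on the opposite strand, over 343 bases at its start, and 6.96% of its 50-base runs occur in transcripts of other genes. Coq10a and Coq10b shared no 50-base run with each other.

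**Figure D2:**
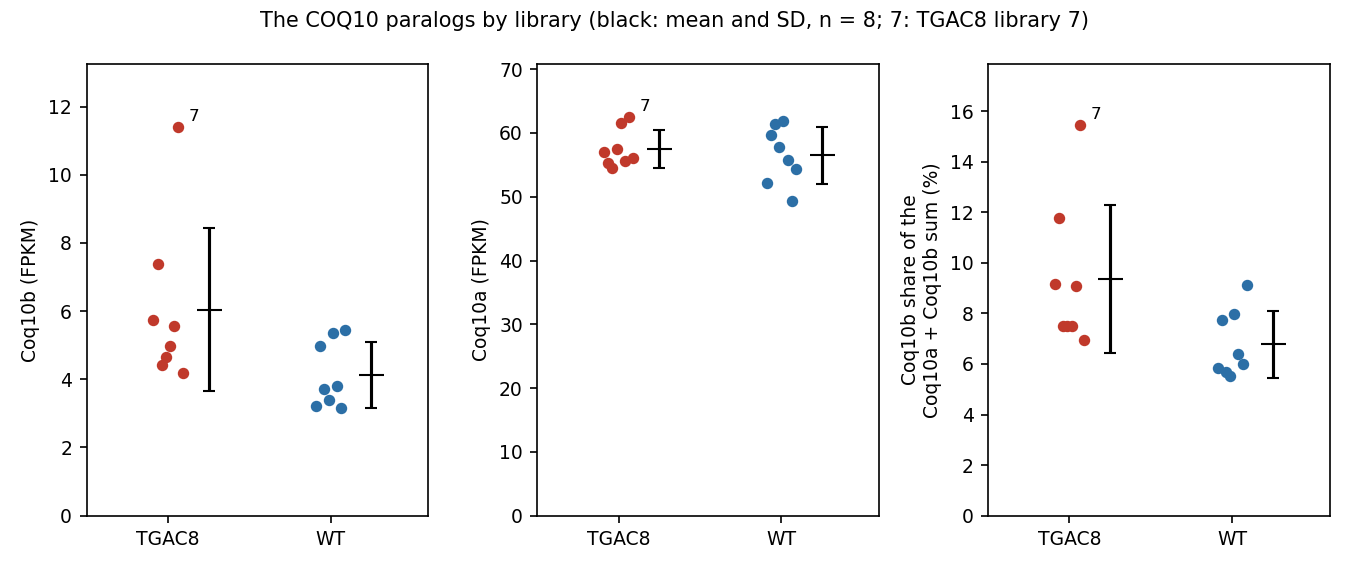
Coq10b (left) and Coq10a (middle) in FPKM and the percent of the Coq10a plus Coq10b sum that is Coq10b (right), with 1 point per library, TGAC8 left of WT, and mean and SD of 8 libraries in black. Coq10b reaches 11.4 FPKM in TGAC8 library 7, against a highest WT value of 5.44 FPKM, while Coq10a spans 54.5 to 62.5 FPKM in TGAC8 and 49.3 to 61.9 FPKM in WT.

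A factor that scales a whole library nearly cancels in the difference between genes of that library, and 4 pairs were tested in this way with exact 2-sided permutation tests, adjusted over the 4 pairs. Coq10b minus Coq10a was -3.30 ± 0.44 log2 units in TGAC8 and -3.77 ± 0.28 log2 units in WT (SD, 8 mice each). TGAC8 was higher by 0.47 ± 0.18 log2 units (SE), with an exact permutation p of 0.0199 and an adjusted p of 0.0796, and 8 of 8 TGAC8 libraries were above the WT median. The difference therefore missed the threshold after adjustment. It passed without TGAC8 library 8 (0.53, exact permutation adjusted p 0.0479) and without WT library 8 (0.53, adjusted p 0.0274), and without TGAC8 library 7 it was 0.34. Coq10b made up 9.36% ± 2.91 of the sum of both paralogs in TGAC8 and 6.78% ± 1.32 in WT (SD, 8 mice each).

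The other pairs differed by less. Coq7 minus Coq9, the hydroxylase and its partner, was higher in TGAC8 by 0.058 ± 0.052 log2 units (SE), with an exact permutation p of 0.284 and the same value after adjustment. Coq8a minus Coq8b, paralogs of an atypical kinase family that the complex needs, had a TGAC8 minus WT difference of -0.26 ± 0.23 log2 units (SE; exact permutation p 0.272, adjusted p 0.284). Coq8b was low, at 0.462 to 1.54 FPKM, and the pair had an SD of 0.43 in TGAC8 and 0.49 in WT. This pair therefore says little about Coq8a, whose own change is given below. Pdss1 minus Pdss2, the subunits of the enzyme that builds the tail, had a TGAC8 minus WT difference of -0.13 ± 0.10 log2 units (SE; exact permutation p 0.209, adjusted p 0.284), with 0 of 8 TGAC8 libraries above the WT median.

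**Figure D3:**
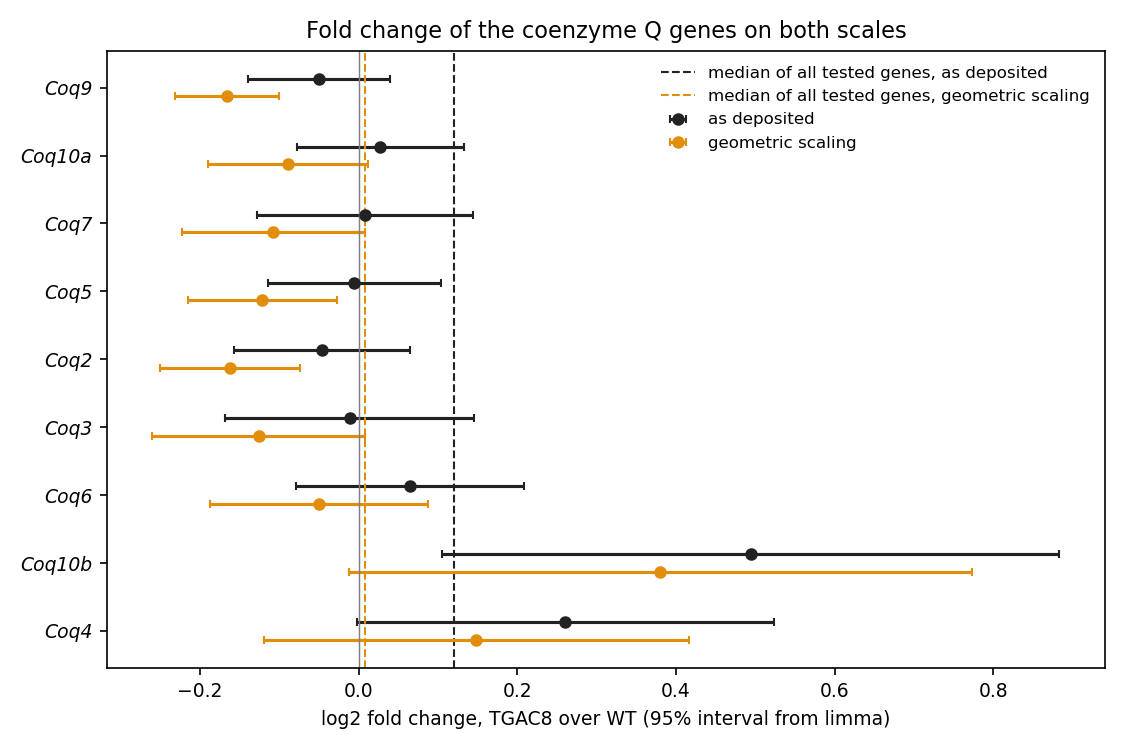
Log2 fold change of TGAC8 over WT with its 95% interval from limma for the 9 coenzyme Q genes, as deposited (black) and after geometric scaling (orange), with dashed lines at the median of all tested genes on each scale. As deposited the median of all genes is at 0.12 and 6 of the 9 genes lie within 0.05 of 0, while Coq10b lies at 0.49 with an interval of 0.10 to 0.88.

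The precision set what could be seen. For the 7 genes other than Coq4 and Coq10b the 95% intervals of the log2 fold change lay within -0.17 and 0.21, so larger changes of these genes fall outside their intervals as deposited. The intervals of Coq4 and Coq10b were wider, and Coq10b varied more between mice of a genotype than most genes of its level. Its within-genotype SD was 0.40 log2 units, at the 97.2 percentile of the 500 tested genes nearest to it in mean level. That SD includes TGAC8 library 7, at 11.4 FPKM. Without this library the limma SE of the Coq10b fold change was 0.14, against 0.18 with all 16 libraries. Coq9 lay at the other end, with an SD of 0.077 log2 units at the 17.2 percentile. The other 7 genes lay between the 24 percentile (Coq2) and the 67.3 percentile (Coq4).

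**Figure D4:**
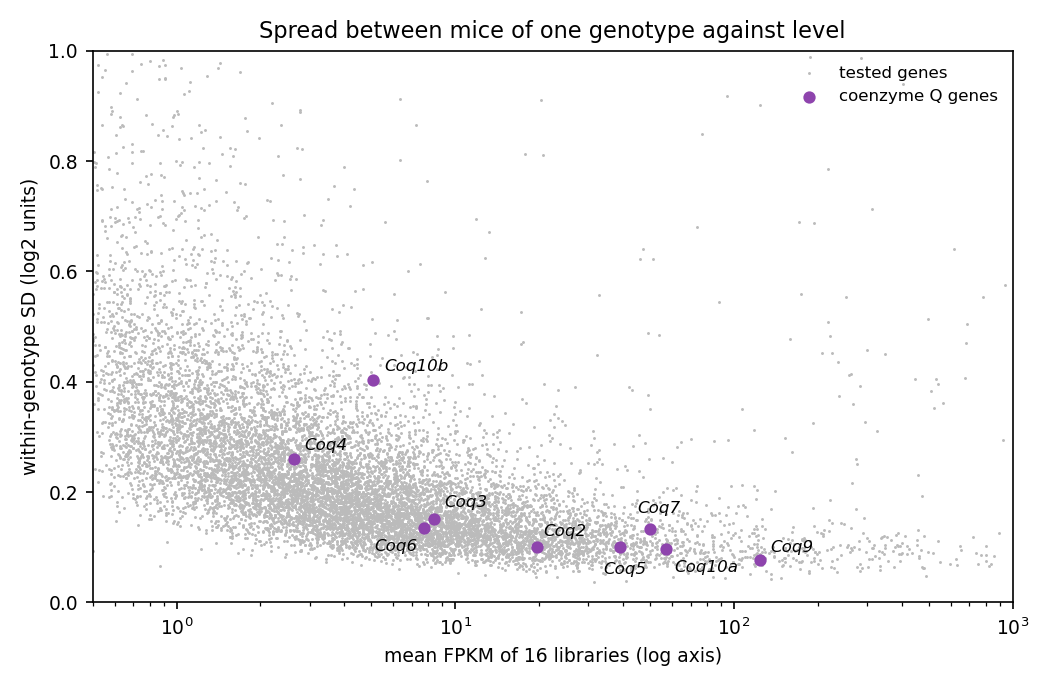
Within-genotype SD of log2(FPKM + 0.1) against the mean FPKM of 16 libraries (log axis) for all tested genes (grey) and the 9 coenzyme Q genes (purple), with genes whose SD exceeds the axis left out. Coq10b stands above the bulk of genes of its level with an SD of 0.40 log2 units, and Coq9 stands low with 0.077.

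The order of the levels was the same in both genotypes, Coq9, Coq10a, Coq7, Coq5, Coq2, Coq3, Coq6, Coq10b and Coq4 from high to low, and it spanned 122 ± 8.15 to 2.87 ± 0.423 FPKM in TGAC8 and 126 ± 4.91 to 2.40 ± 0.516 FPKM in WT (SD, 8 mice each). Coq9 was 2.13 times Coq10a in TGAC8 and 2.23 times in WT, and it made up 39.0% ± 1.06 of the summed level of the 9 genes in TGAC8 and 40.2% ± 0.904 in WT. Coq3 and Coq6 differed by less than their spread in both genotypes, at 8.36 ± 0.844 and 7.90 ± 0.697 FPKM in TGAC8 and 8.44 ± 0.969 and 7.55 ± 0.757 FPKM in WT. Coq6 and Coq10b differed by less than their spread in TGAC8 but not in WT. Coq10b was the lower of the 2 in 8 of 8 WT libraries and in 7 of 8 TGAC8 libraries, all but library 7, where it stood at 11.4 FPKM. Each other neighbour in the order differed by more than the larger SD of the pair.

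After the genotype means were taken out, the 9 genes varied together only in part. Of their 36 pairs 30 had a positive correlation over the 16 libraries, with a median r of 0.24 and a range of -0.32 to 0.65, and all genes of a library share its scaling. Coq2 with Coq3 (r = 0.65) and Coq7 with Coq9 (r = 0.62) were the highest, and the lowest was Coq4 with Coq10a (r = -0.32). Coq10a with Coq10b had r = 0.47.

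The 3 genes most like each member were taken by the same residual correlation over 16 libraries among all tested genes. Because they were picked as the highest among 11544 genes, a high r can come from the choice alone, and no test was made. For Coq10b they were Mbd1 (r = 0.84), Ddo (r = 0.81) and Noct (r = 0.81), and without TGAC8 library 7 these were 0.77, 0.63 and 0.67. Noct, which encodes the phosphatase nocturnin, averaged 7.71 FPKM in TGAC8 and 4.37 FPKM in WT. Its log2 fold change was 0.74 with a limma adjusted p of 0.0102, where 25.6% of all tested genes were called. Mbd1 and Ddo were not called, with log2 fold changes of 0.19 and -0.11 and limma adjusted p of 0.341 and 0.397. For Coq9 they were Ak3 (r = 0.93), a mitochondrial adenylate kinase, Uqcrfs1 (r = 0.90), the iron-sulfur subunit of complex III, and Srp54c (r = 0.89). For the other genes the highest was Adgra2 with Coq2 (r = 0.88), Gadd45gip1 with Coq3 (r = 0.87), Rab26os with Coq4 (r = 0.81), Gm17799 with Coq5 (r = 0.87), Stk3 with Coq6 (r = 0.82), Polr1d with Coq7 (r = 0.87) and Ppm1a with Coq10a (r = 0.85). The next of each were Pum3 and Trim72 for Coq2, Zranb2 and Tug1 for Coq3, Orc2 and Mppe1 for Coq4, Cpt1b and Sec23a for Coq5, Mrpl37 and Adrm1 for Coq6, Itga7 and Ndufa11 for Coq7, and Dusp16 and Mrpl57 for Coq10a, at r of 0.77 to 0.88.

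Among the other genes of the pathway 2 were called. Of 11 further synthesis and regulation genes 0 were higher and 2 were lower in TGAC8, Coq8a and Stard7, against 4.65% of all tested genes called lower, with a list median of -0.034. Coq8a (listed as Adck3) encodes an atypical kinase-like protein that supports the synthesis complex. It stood at 72.5, 84.4 and 95.3 FPKM in TGAC8 and 92.6, 96.3 and 105 FPKM in WT, with 7 of 8 TGAC8 libraries below the lowest WT library. Its log2 fold change was -0.22 ± 0.051 (SE) with a limma adjusted p of 0.0049, and on the geometric scale -0.33 with an adjusted p of 3.94e-06, and it remained called without each of the 16 libraries in turn. Coq8a overlaps Cdc42bpa on the opposite strand over 366 bases in the annotation, but its row in the table runs over chr1:179959968-180196020, far beyond the annotated gene (chr1:180165238-180199602) on the side of Cdc42bpa, and what the row counts there is unknown. Cdc42bpa had a log2 fold change of 0.10 with an adjusted p of 0.282. The Coq8a paralog Coq8b (listed as Adck4) averaged 1.06 ± 0.309 FPKM in TGAC8 and 1.04 ± 0.377 FPKM in WT, with a log2 fold change of 0.044 and an adjusted p of 0.902. Coq8b overlaps Gm15567 over 8670 bases and Gm44641 over 5775 bases. Its row starts at chr7:27228607, ahead of the annotated start at chr7:27233023.

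Stard7, which carries phosphatidylcholine to mitochondria and takes part in moving coenzyme Q to the cell surface, averaged 26.4 ± 1.71 FPKM in TGAC8 and 29.2 ± 1.61 FPKM in WT (SD, 8 mice each). Its log2 fold change was -0.14 with a limma adjusted p of 0.0331, and it was called in 9 of 16 fits that left out 1 library. Pdss1 averaged 3.31 ± 0.580 FPKM in TGAC8 and 3.75 ± 0.647 FPKM in WT, with a log2 fold change of -0.17 and an adjusted p of 0.29. Pdss2 averaged 5.50 ± 0.656 FPKM in TGAC8 and 5.67 ± 0.758 FPKM in WT. The largest positive values of this list were those of Fdxr, the ferredoxin reductase that feeds COQ6, and of Parl, a mitochondrial protease, each with a log2 fold change of 0.15 and adjusted p of 0.558 and 0.176.

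Of the 10 listed genes of the mevalonate route, which supplies the tail, 7 were in the table. Of these 0 were called, against 25.6% of all tested genes, with a list median of 0.27 beside 0.12 over all tested genes. Mvk averaged 1.32 ± 0.480 FPKM in TGAC8 and 1.01 ± 0.382 FPKM in WT, with a log2 fold change of 0.33 and a limma adjusted p of 0.355. Fdps averaged 2.26 ± 0.482 FPKM in TGAC8 and 1.84 ± 0.386 FPKM in WT, with 0.28 and an adjusted p of 0.177. At the other end Ggps1 had -0.045 and Hmgcs1 -0.027. These are low transcripts with wide spread. Their count at an unadjusted limma p under 0.05 was 1, Pmvk, at 0.0197, against 4336 of all 11544 tested genes.

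Among 11 dehydrogenases that reduce coenzyme Q, 0 were higher and 2 were lower, Nqo1 and Etfdh, against 4.65% of all tested genes called lower, with a list median of -0.061. Nqo1, the cytosolic quinone reductase, had 10.6 ± 1.10 FPKM in TGAC8 and 12.3 ± 1.29 FPKM in WT (SD, 8 mice each), with a log2 fold change of -0.22 and a limma adjusted p of 0.0303, called in 9 of 16 fits without 1 library. Etfdh, which passes electrons from fatty acid oxidation to coenzyme Q, had 133 ± 8.35 FPKM in TGAC8 and 146 ± 7.52 FPKM in WT, with -0.13 and an adjusted p of 0.0374, called in 5 of 16 such fits. Aifm2, the plasma membrane reductase that keeps coenzyme Q reduced, had a log2 fold change of 0.23 with an adjusted p of 0.0619. On the geometric scale 6 of the 11 were called lower, against 10.8% of all tested genes.

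Of 15 complex III genes, whose enzyme oxidizes coenzyme Q, 0 were higher and 2 were lower, against 4.65% of all tested genes, and both were assembly factors. Lyrm7 averaged 5.19 ± 0.704 FPKM in TGAC8 and 6.45 ± 1.09 FPKM in WT, with a log2 fold change of -0.30 and a limma adjusted p of 0.0386, called in 6 of 16 fits without 1 library. Uqcc1 averaged 18.6 ± 1.81 FPKM in TGAC8 and 22.4 ± 1.73 FPKM in WT, with -0.27 and an adjusted p of 0.00462, called in 16 of 16 such fits. The list median was 0.060. Of 36 nuclear subunit genes of complex I, 0 were higher and 5 were lower, Ndufa12, Ndufa5, Ndufb7, Ndufs4 and Ndufv1, against the same 4.65%, with a list median of -0.047, and Ndufa12 had the lowest value, -0.19 with an adjusted p of 0.00158. On the geometric scale 5 of 15 complex III genes and 24 of 36 complex I genes were called lower, against 10.8% of all tested genes.

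The 16 regulators and content markers of mitochondria had a list median of 0.0052, with 1 higher and 2 lower, against 20.9% and 4.65% of all tested genes. Esrra encodes a nuclear receptor that drives genes of oxidative metabolism. It had 14.3 ± 1.18 FPKM in TGAC8 and 11.7 ± 1.0 FPKM in WT (SD, 8 mice each). Its libraries did not overlap, where 4.79% of all tested genes had TGAC8 above WT with no overlap and 1.13% below. The log2 fold change of Esrra was 0.29 with a limma adjusted p of 0.00247, but of 0.0676 on the geometric scale. The Cs transcript, of citrate synthase, had 139 ± 7.53 FPKM in TGAC8 and 160 ± 5.51 FPKM in WT, again with no overlap. Its log2 fold change was -0.20 with a limma adjusted p of 0.000984. This is a transcript level and does not measure mitochondrial content. The study's electron microscopy found no genotype difference in the number or cell volume share of healthy mitochondria, and mildly more damaged ones in TGAC8. Hspd1, the mitochondrial chaperonin, had a log2 fold change of -0.20 with an adjusted p of 0.00644. Ppargc1a, the coactivator of mitochondrial biogenesis, averaged 21.8 ± 1.47 FPKM in TGAC8 and 21.9 ± 1.56 FPKM in WT.

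**Figure D5:**
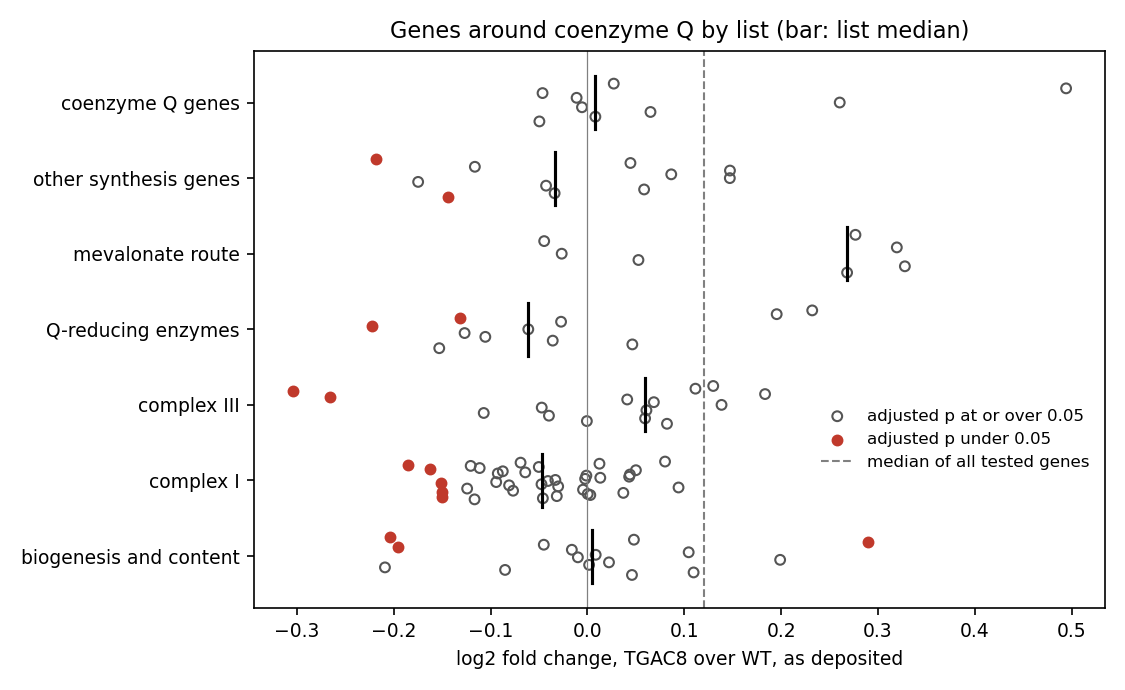
Log2 fold change of TGAC8 over WT as deposited, 1 point per gene, for the 9 coenzyme Q genes and 6 lists of related genes, filled where the limma adjusted p is under 0.05, with a bar at each list median and a dashed line at the median of all tested genes (0.12). The row of the 9 genes has no filled point, the row of other synthesis genes has 2 at -0.22 (Coq8a) and -0.14 (Stard7), and the single filled point to the right is Esrra at 0.29.

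Neighbouring genes share bases with some of the 9 genes. Coq6 and Fam161b lie on opposite strands and share 177 bases, and Fam161b had a log2 fold change of 0.28 with a limma adjusted p of 0.049. The row of Coq6 in the table starts at chr12:84345314, ahead of the annotated gene, and the row of Pdss1 runs to chr2:23040241, beyond the annotated end at chr2:22940266. Coq9 and Ciapin1 share 38 bases, and Ciapin1 averaged 7.59 FPKM in TGAC8 and 5.96 FPKM in WT, with a log2 fold change of 0.37 and an adjusted p of 0.033, at levels far below that of Coq9. Of the 50-base runs of Coq2, 7.63% also occur in transcripts of the pseudogene Gm6728, and for Coq3, Coq7 and Coq9 no run is shared.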

How the data were processed

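RNA of the LV was sequenced from 8 TGAC8 and 8 WT mice, 1 stranded total RNA library each. The authors aligned reads to mm10 plus the cDNA of human ADCY8 (TopHat2 2.1.1 in the submitters' processing notes, another version in the study's methods) and computed the deposited FPKM of each library with Cufflinks 2.1.1. The sources used here name neither the gene annotation nor the use of strand. The authors' Cuffdiff columns (mean FPKM per genotype, fold change, test score, p and q) were not used.

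Libraries were grouped by their labels. FPKM keeps no read count, so counting error is not given and precision rests on the spread between mice. Steps between values of 20 low genes put relative depth at 0.886 to 1.10 of the typical library. Each library gave only 3 to 7 such values, and only values close to the lowest of each gene were used. That choice narrows the range in advance, so it cannot show whether depth was similar. Rows with a mean of at least 0.5 FPKM (11544 of 11811) were tested 2-sided with limma 3.58.1 (R 4.3.3) with Benjamini-Hochberg adjustment and a trended variance, on log2(FPKM + 0.1). Fold changes on this scale understate those of low genes. The scripts were tested on simulated data. Positions are from GENCODE vM21 and promoters from RefSeq. The names of 18 rows had been turned into dates and were left as such.

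Alternatives were pseudocounts of 1 and 0.01, geometric scaling, quantile normalization, a filter at a mean of 1 FPKM or none, no variance trend, array weights, an exact rank-sum test, a block by library number and leaving out each library. Every member was named. From each other list the called genes were named or counted, and the 2 largest and 2 smallest fold changes at a mean of at least 1 FPKM gave the examples. Other genes named beside these were chosen after their values were seen. Members and lists were chosen with earlier results of these data known.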

Additional observations from a re-analysis of the deposited data

Results flagged for a closer look

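Dixon's 95% limit is passed by chance in about 1 in 20 groups of normal values, with both ends of a group counted. FPKM without logs were used here. In 72 groups of 8 libraries (36 named genes in each genotype) 8 had a highest library farther from the rest than this limit. Among the 9 coenzyme Q genes there was 1, Coq10b in TGAC8 library 7, at 11.4 FPKM with the next library at 7.39 FPKM. The other 7 were a TGAC8 library of Nqo1 at 13 FPKM, of Ndufa5 at 715 FPKM, of Uqcr10 at 599 FPKM and of Ggps1 at 4.74 FPKM, and a WT library of Ggps1 at 5.20 FPKM, of Parl at 12.1 FPKM and of Ndufa1 at 204 FPKM. None of these values was left out of the tests.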

How the results depend on the processing

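Under 26 alternatives Coq4, Pdss1 and Coq8a (Adck3) kept their direction and their side of the threshold. Coq10b kept its direction in all 26, with log2 fold changes of 0.35 to 0.56. It passed in 4 that left out a library, where the log2 fold change was 0.55 to 0.56. Coq2 was called lower after geometric scaling (-0.16) and quantile normalization (-0.14), and Coq9 after geometric scaling (-0.17), where the member count was 2 lower. Small fold changes turned sign without any call. After geometric scaling and quantile normalization Coq6 was -0.050 and -0.056, Coq7 -0.11 and -0.020, Coq10a -0.089 and -0.011, and Adck4 -0.060 and -0.13. With array weights Coq5 was 0.00081. Leaving out 1 library each gave -0.039 to 0.034 for Coq3, -0.032 to 0.025 for Coq5, -0.023 to 0.043 for Coq7, -0.00043 to 0.046 for Coq10a, -0.091 to 0.13 for Adck4, -0.083 to 0.0042 for Pdss2, and 0.34 to 0.53 for Coq10b minus Coq10a.

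Geometric scaling called 1124 genes higher and 1244 lower over all genes and quantile normalization 1057 and 1054, against 2417 and 537 as deposited. Under geometric scaling 6 dehydrogenases, 5 complex III genes, 24 complex I genes and 8 cardiomyocyte markers were lower, and 0 biogenesis genes and 1 smooth muscle marker (2 as deposited) were higher. The cause was not tested. Libraries with the same number did not vary together (highest correlation 0.0067, 0 libraries closest to their own number), so the numbers were not used as pairs. With a block by library number 0 of 9 members were called (Coq10b adjusted p 0.101), 2444 genes in all (2017 higher, 427 lower), and 1 other synthesis gene (Coq8a), 1 dehydrogenase, 1 complex III gene and 2 complex I genes were lower. In the paired form Coq10b minus Coq10a had an exact adjusted p of 0.219. FPKM holds no read depth, so these limits are those of the spread between mice.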
